A study of Mus musculus with 2 samples.

Results

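Wnt ligands, their receptors, their secreted inhibitors and a set of downstream genes were followed across the cell classes of mouse knee synovium. The set was a list of 44 gene symbols, 14 ligands, 15 receptors, 9 secreted inhibitors and 6 targets or feedback genes, and a member was kept when its gene row held at least 10 unique molecular identifiers (UMIs, the count of captured RNA molecules) over both matrices. 42 of the 44 passed, out of 18309 gene rows that reach 10 UMIs and 32285 rows in all. Wnt7b and Dkk1 did not pass. The series holds 1 MMS library, labelled as day 14, and 1 control library with no day given. Each was made from the synovium of 20 pooled knees of wild type mice, digested with Liberase TL and DNase I and run through a droplet kit that counts RNA 3′ ends. The labels do not spell out MMS, and they give no age, sex or strain. With 1 library a group there is no spread between animals to test against, so no p-value is given. Intervals are exact 95% intervals and cover counting error only.

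Wnt proteins are secreted lipid-modified ligands. Canonical signalling runs through a Frizzled receptor with Lrp5 or Lrp6, stabilises beta-catenin and turns on genes through transcription factors of the TCF and LEF family, while other branches run through Ror1, Ror2 or Ryk. Dickkopf proteins act on the Lrp co-receptors, and the secreted frizzled-related proteins, Frzb and Wif1 bind the ligands outside the cell. In joints, Wnt signals are known from the forming synovial cavity, from cartilage and bone, and from fibroblasts of the synovium.

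After filters, 3765 MMS cells and 6891 control cells were kept, with medians of 17444 and 10990 UMIs a cell, and 4 kept barcodes occurred in both libraries. Cells were placed in classes by marker lists that hold no Wnt member. The fibroblast-like class held 1839 MMS and 3208 control cells with medians of 27830 and 13780 UMIs. Its makeup differed between the libraries: 37.2% of MMS and 8.2% of control fibroblast-like cells were lining-gated (Prg4, Htra4 and others), and 46.6% and 90.5% were sublining-gated (Thy1, Cd34, Dpp4, Pi16 and others). A tendon and cartilage gate (Tnmd, Scx, Chad and others) took 82 MMS cells and no control cell, and this class is described in the MMS library alone. In counts per 1000000 UMIs of fibroblast-like cells, all 9 lining markers summed to 51239 in MMS and 13677 in control, all 10 sublining markers to 4588 and 10011, all 12 tendon and cartilage markers to 1320 and 259.9, and all 10 mural markers to 319.7 and 133.6, with no marker at 0. In a clustering of the same cells, the sublining clusters were mostly of 1 library: clusters 0, 2 and 4 held 419, 361 and 331 MMS cells against 60, 119 and 6 control cells, and clusters 20, 19 and 11 held 26, 18 and 45 MMS cells against 1036, 997 and 506 control cells. The labels name goblet cells, but 0 of 3765 MMS and 0 of 6891 control cells had UMIs of 2 or more of 8 goblet markers, which allows shares of up to 0.0797% and 0.0435%. The cells are therefore described by their marker classes.

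In fibroblast-like cells the ligand side of the set was on balance lower in MMS and the inhibitors split in both directions. Levels are counts per 1000000 UMIs of the class (CPM), and a member was called higher or lower when it had at least 20 UMIs over both libraries in the class and its CPM differed at least 2-fold. Of the 38 members with 20 UMIs, 8 were called higher and 10 lower, beside 10.9% of all 15335 genes measured this way called higher and 8.53% called lower. The median log2 ratio of MMS over control was -0.14 for the members and 0.09 for all genes. Of 10 ligands, 2 were higher and 5 lower. Of 15 receptors, 2 were higher and 3 lower, of 8 inhibitors 3 were higher and 2 lower, and of 5 targets or feedback genes 1 was higher and none lower. The lining share, the depth and the tendon-gated cells named above moved together with these counts, and their part in each was not tested. The same members are therefore also given within the lining and sublining gates.

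**Figure D1:**
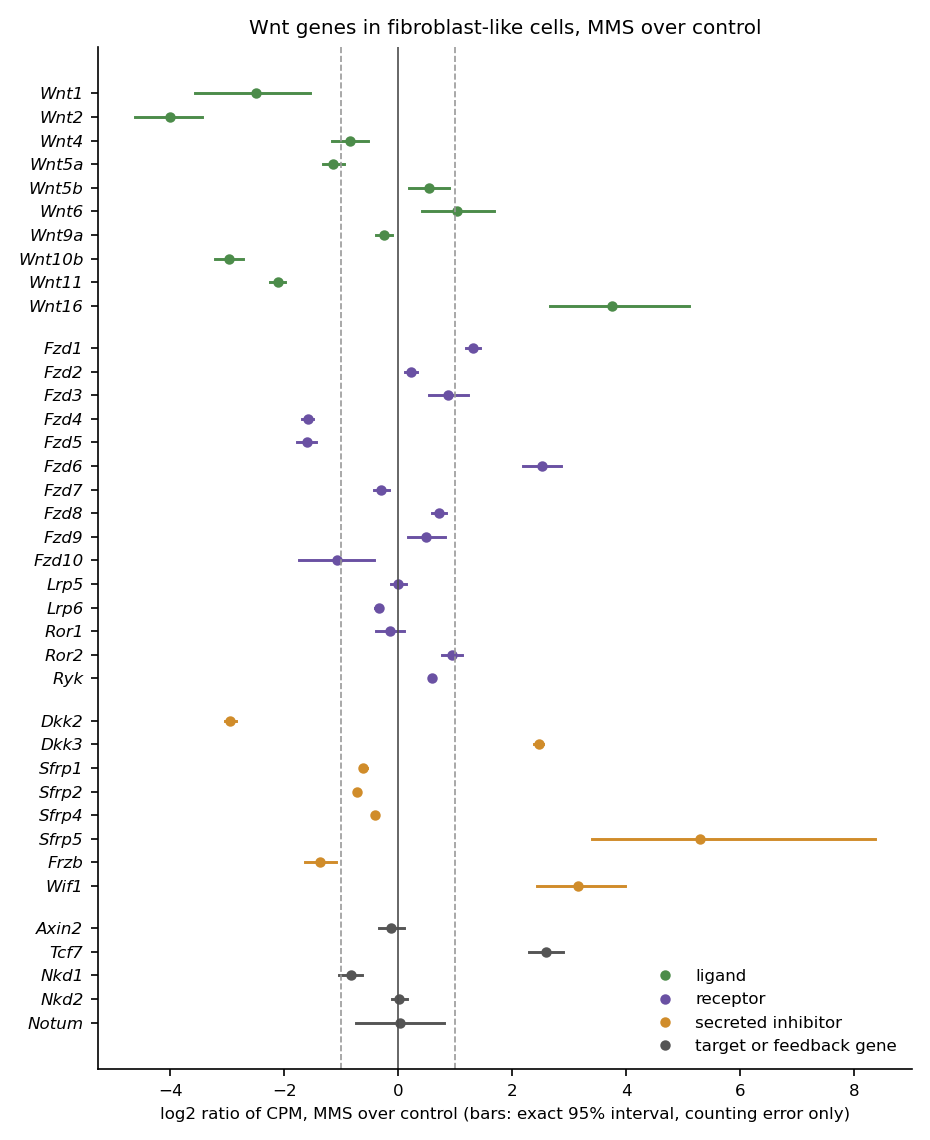
Log2 ratio of CPM, MMS over control, for the 38 Wnt members with at least 20 UMIs in fibroblast-like cells, with points for the ratio, bars for exact 95% intervals of counting error and dashed lines at 2-fold. Wnt2 lies lowest among the members at -4.00, Dkk2 and Wnt10b lie near -2.95 and -2.97, and Fzd6, Dkk3 and Tcf7 lie between 2.47 and 2.58.

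Wnt10b, a canonical ligand known for holding back fat cell formation, was detected in 159 UMIs in MMS and 1146 UMIs in control fibroblast-like cells, or 3.05 CPM (2.60 to 3.57) against 23.8 CPM (22.5 to 25.3). The log2 ratio was -2.97 (-3.21 to -2.73). Within sublining-gated cells it stood at 4.97 CPM in MMS and 27.5 CPM in control, a log2 ratio of -2.47 (-2.77 to -2.18), so the intervals of the libraries lay apart in both views. After each cell was thinned to 2000 UMIs, 0.404% of MMS and 5.20% of control fibroblast-like cells carried a Wnt10b UMI, and none of the macrophage or monocyte-like cells of either library did.

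Wnt1, the founding member of the family, lies next to Wnt10b on chromosome 15. Their start sites are 11.7 kb apart on opposite strands. Wnt1 was sparse, with 11 UMIs in MMS and 57 in control fibroblast-like cells (0.211 against 1.19 CPM), a log2 ratio of -2.49 (-3.57 to -1.54). Wnt2, a canonical ligand best known from lung development, gave 27 UMIs in MMS and 398 in control (0.518 against 8.28 CPM), with a log2 ratio of -4.00 (-4.62 to -3.44). All but 1 of the 399 control UMIs of Wnt2 in kept cells and all 27 MMS UMIs were in fibroblast-like cells. Wnt11, a ligand mostly tied to cell movement and polarity, stood at 12.5 CPM (11.6 to 13.5) in MMS against 54.2 CPM (52.1 to 56.3) in control, a log2 ratio of -2.12. These ligands were lower in MMS in the sublining gate too, at log2 ratios of -1.99 for Wnt1, -2.91 for Wnt2 and -1.85 for Wnt11. In lining-gated cells Wnt11 stood at 10.8 CPM in MMS and 12.5 CPM in control (-0.22, -0.59 to 0.16) and Wnt10b at 1.76 and 2.38 CPM (-0.44, -1.32 to 0.52), both with overlapping intervals.

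The sequences just before the start sites of Wnt10b, Wnt1, Wnt11 and the inhibitor Dkk2, members that were all lower in MMS and have an entry in the RefSeq promoter table (build GRCm38.p6), are shown with matches to the TCF and LEF core CTTTGNT on either strand in capitals. Each is the 250 bases before the start, written 5′ to 3′ on the strand of the gene.
Wnt10b, chr15:98778151-98778400, minus strand: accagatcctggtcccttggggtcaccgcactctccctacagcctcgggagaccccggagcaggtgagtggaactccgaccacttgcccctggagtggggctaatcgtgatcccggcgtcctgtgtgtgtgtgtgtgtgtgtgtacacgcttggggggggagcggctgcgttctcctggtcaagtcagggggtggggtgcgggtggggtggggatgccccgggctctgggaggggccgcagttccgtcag
Wnt1, chr15:98789607-98789856, plus strand: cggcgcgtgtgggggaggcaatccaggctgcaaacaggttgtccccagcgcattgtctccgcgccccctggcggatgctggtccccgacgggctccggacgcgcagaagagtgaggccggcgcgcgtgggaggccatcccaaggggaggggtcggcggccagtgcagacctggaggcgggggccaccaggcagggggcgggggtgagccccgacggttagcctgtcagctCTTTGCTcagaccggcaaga
Wnt11, chr7:98834862-98835111, plus strand: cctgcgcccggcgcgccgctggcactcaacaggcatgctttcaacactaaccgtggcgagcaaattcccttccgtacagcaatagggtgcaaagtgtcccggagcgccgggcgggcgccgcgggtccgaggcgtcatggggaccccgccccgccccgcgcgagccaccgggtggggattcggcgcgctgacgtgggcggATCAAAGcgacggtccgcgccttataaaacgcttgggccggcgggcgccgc
Dkk2, chr3:132085042-132085291, plus strand: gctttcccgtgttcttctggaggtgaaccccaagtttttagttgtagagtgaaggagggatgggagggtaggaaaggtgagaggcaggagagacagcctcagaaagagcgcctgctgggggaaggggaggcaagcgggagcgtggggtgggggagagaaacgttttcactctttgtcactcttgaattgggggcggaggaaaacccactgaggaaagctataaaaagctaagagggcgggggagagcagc
The Wnt1 and Wnt11 windows shown hold 1 match each and those of Wnt10b and Dkk2 hold none. Wnt2, Fzd4, Fzd5, Fzd10 and Frzb were also called lower in fibroblast-like cells and have an entry. Their windows, not shown, hold none either. Another Wnt11 entry, chr7:98838595-98838844, holds none. The Wnt11 match is also the stricter CTTTGAT, read on the other strand. Over the members, 30 had an entry, of which 5 held CTTTGNT and 2 held CTTTGAT. Among all 27025 genes of the table, 18.1% and 3.72% held these letters, so the members' share of the first lies near that of all genes. The windows of the feedback genes Axin2, Nkd1 and Nkd2 held neither. A match is a run of letters, and nothing was measured here about binding.

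Wnt16 was the ligand with the largest ratio in the other direction. This ligand, known from joint and cortical bone studies in mice, gave 102 UMIs in MMS and 7 in control fibroblast-like cells, or 1.96 CPM (1.60 to 2.38) against 0.146 CPM (0.0586 to 0.3001), a log2 ratio of 3.75 (2.65 to 5.10). The MMS UMIs came from 36 of 1839 cells, 95.1% of them from sublining-gated cells, and 10 cells held 63.7% of them. Wnt6 was called higher at 1.36 CPM in MMS against 0.666 CPM in control, a log2 ratio of 1.03 (0.41 to 1.68) that sits at the threshold. It was 0.33 when lining-gated and sublining-gated cells were given equal weight, a setting that leaves out the other fibroblast-like cells. In cells of equal depth, compared within bins of UMIs a cell, it was 0.25.

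Wnt5a, the main ligand of the Ror2 branch, was called lower over all fibroblast-like cells at 6.83 CPM in MMS and 15.04 CPM in control, a log2 ratio of -1.14 (-1.33 to -0.95). In the sublining gate, which held 81.2% of its MMS and 99.2% of its control UMIs, it stood at 13.4 CPM in MMS and 17.5 CPM in control, a log2 ratio of -0.38 that misses the 2-fold mark. With equal weight for the gates the ratio was -0.33. In lining-gated cells, a larger share of the class in MMS, Wnt5a was at 0.815 CPM in MMS and 0.476 CPM in control. The part of the lining share in the whole-class ratio was not tested.

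Wnt9a, a ligand of the forming joint cavity, was at similar levels, with 14.1 CPM in MMS and 16.7 CPM in control, a log2 ratio of -0.25 (-0.39 to -0.10). Wnt4, another ligand of the developing joint, stood at 2.71 and 4.87 CPM in fibroblast-like cells of MMS and control (log2 ratio -0.85), and Wnt5b, studied in growth plate cartilage, at 3.47 and 2.39 CPM (0.54). The remaining ligands were near the detection limit in fibroblast-like cells. Wnt2b had 9 UMIs in MMS and 2 in control, all 9 of them in lining-gated cells, and Wnt10a had 14 and 5. Wnt9b had 13 of its 15 MMS UMIs in endothelial-like cells, and only 2 UMIs in all kept control cells.

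**Figure D2:**
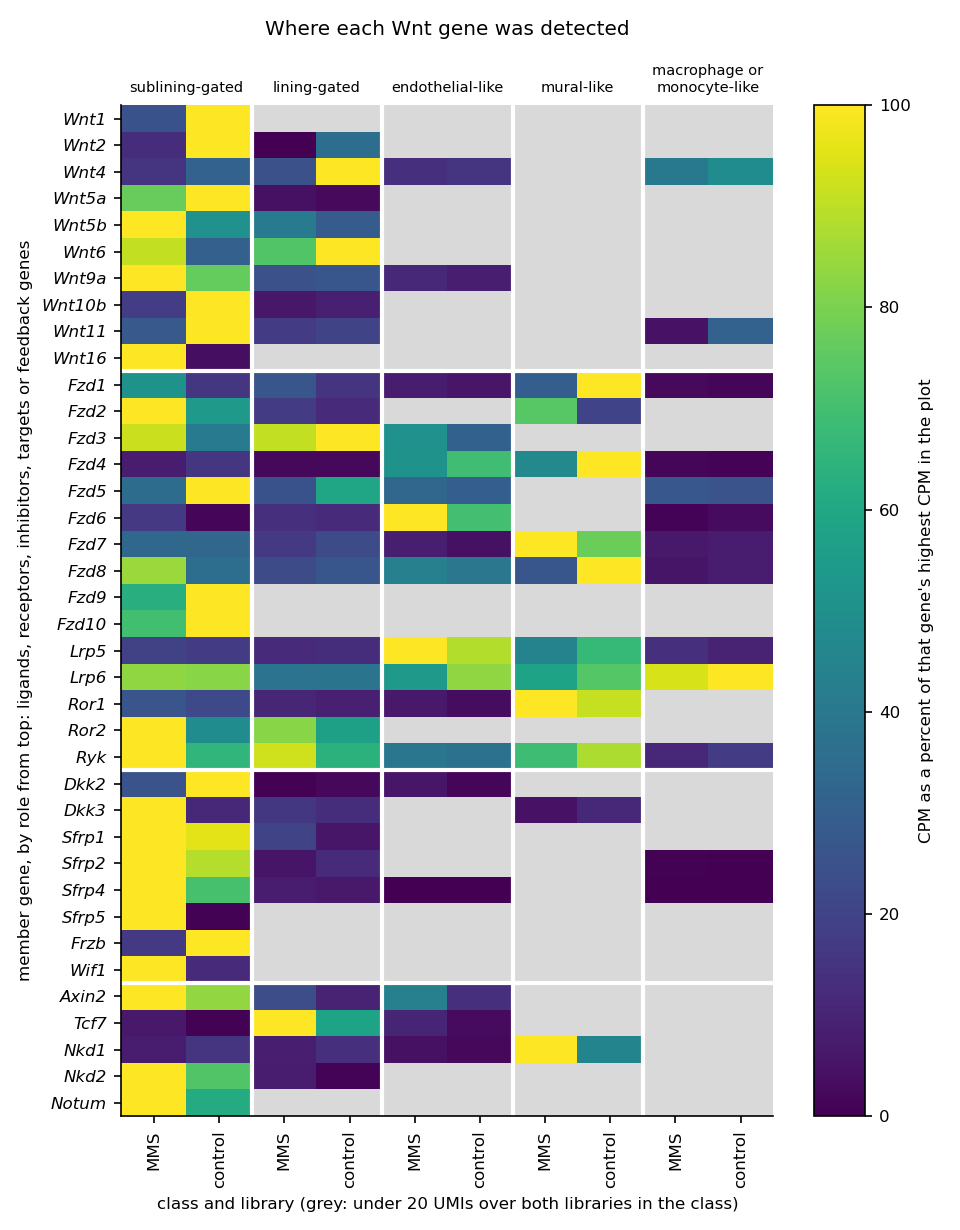
CPM of each Wnt member in 5 classes, MMS left of control, as a percent of that gene's own highest value in the plot, with grey where the class held under 20 UMIs of the gene. Wnt10b, Wnt2, Dkk2 and Frzb are brightest in control sublining-gated cells, Tcf7 in MMS lining-gated cells, and Fzd6 and Lrp5 in endothelial-like cells.

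Among classes with at least 50 cells, the class with the highest level of a ligand was mostly the fibroblast-like one, for 10 of 13 ligands in MMS and 8 of 13 in control. Wnt4 was the exception in both libraries. Among these classes its level was highest in macrophage or monocyte-like cells, at 4.87 CPM in MMS and 5.87 CPM in control. Fibroblast-like cells still held 64.4% and 60.6% of its UMIs. The control interval, 4.79 to 7.12, overlaps that of control fibroblast-like cells, 4.26 to 5.53. Lining-gated cells, taken apart from the other fibroblast-like cells, stood at 3.003 CPM in MMS and 12.1 CPM in control. The secreted inhibitors were highest in fibroblast-like cells for 8 of 8 in MMS and 7 of 8 in control, Sfrp5 having no such class in control. Classes under 50 cells were not ranked, though some held members. Schwann or glial-like cells held 26 of 108 Wnt6 UMIs in MMS (28 cells) and 2 of 44 in control (9 cells). Adipocyte-like cells held 15 of 391 Wnt5a UMIs in MMS (37 cells) and 4 of 729 in control (42 cells). Receptors were spread more widely. Fzd4 was highest in endothelial-like cells in MMS (234 CPM) and in mural-like cells in control (459 CPM), Fzd6 and Lrp5 in endothelial-like cells of both libraries, Fzd7 in mural-like cells and Lrp6 in macrophage or monocyte-like cells.

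Among the Frizzled receptors of fibroblast-like cells, Fzd6, Fzd1, Fzd4 and Fzd5 stood past 2-fold with narrow intervals. Fzd6, known for planar polarity of hair and skin, had 551 UMIs in MMS and 89 in control, or 10.6 CPM (9.71 to 11.5) against 1.85 CPM (1.49 to 2.28), a log2 ratio of 2.51 (2.19 to 2.85). In sublining-gated cells it was 11.1 CPM in MMS against 0.903 CPM in control, a log2 ratio of 3.62, whereas lining-gated cells gave 8.79 and 8.09 CPM, a log2 ratio of 0.12 (-0.33 to 0.59). The libraries thus differed in sublining cells and overlapped in lining cells, and the difference between the gates was not tested. Fzd1 stood at 42.8 CPM (41.0 to 44.6) in MMS and 17.2 CPM (16.1 to 18.5) in control (log2 ratio 1.31), and at 1.71 in the sublining gate.

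Fzd4, which also binds Norrin in blood vessels, was lower at 21.1 CPM (19.8 to 22.4) in MMS against 63.5 CPM (61.3 to 65.8) in control, a log2 ratio of -1.59. Its sublining ratio was -1.03, its lining ratio was 0.17 (10.4 against 9.20 CPM, -0.24 to 0.61), and in cells of equal depth the whole-class ratio was -0.59, short of 2-fold. Fzd5, a close relative of Fzd8, was lower at 7.68 against 23.3 CPM, a log2 ratio of -1.60 (-1.77 to -1.44), and it was past 2-fold in the lining gate (-1.22) and the sublining gate (-1.50) alike. Fzd10 was sparse with 32 UMIs in MMS and 62 in control and a log2 ratio of -1.07 (-1.73 to -0.43), which was -0.63 with the gates weighted equally and -0.71 in cells of equal depth.

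The other receptors of fibroblast-like cells were within 2-fold. Fzd8 stood at 28.9 CPM in MMS and 17.6 CPM in control (log2 ratio 0.72), Ror2 at 15.7 and 8.16 CPM (0.95), Fzd3 at 4.20 and 2.29 CPM (0.88) and the atypical receptor Ryk at 169 and 112 CPM (0.59). These 3, Fzd8, Ror2 and Fzd3, passed 2-fold within sublining-gated cells, at 1.24, 1.04 and 1.14. Fzd2, Fzd7, Fzd9, Lrp6 and Ror1 had log2 ratios between -0.34 and 0.49. Lrp5, a co-receptor of canonical signalling, stood at 19.0 CPM (17.8 to 20.2) in MMS and 19.1 CPM (17.8 to 20.3) in control, and the intervals overlapped almost entirely.

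Dkk2 and Dkk3, relatives within the Dickkopf family, differed between the libraries in opposite directions. Dkk2, which binds Lrp5 and Lrp6, gave 1016 UMIs in MMS and 7238 in control fibroblast-like cells, or 19.5 CPM (18.3 to 20.7) against 151 CPM (147 to 154). The log2 ratio was -2.95 (-3.05 to -2.85), and 8.54% of MMS against 41.1% of control cells held a Dkk2 UMI. At 2000 UMIs a cell the shares were 3.58% and 18.6%, beside 0.173% and 0% in macrophage or monocyte-like cells. In the sublining gate the levels were 45.1 CPM in MMS and 176 CPM in control, a log2 ratio of -1.96 (-2.06 to -1.86).

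Dkk3, a divergent Dickkopf protein whose receptor is less settled, gave 9529 UMIs in MMS and 1592 in control, or 183 CPM (179 to 187) against 33.1 CPM (31.5 to 34.8), a log2 ratio of 2.47 (2.39 to 2.54). After thinning, 25.5% of MMS and 4.09% of control fibroblast-like cells carried a Dkk3 UMI, against 0.143% and 0.191% of endothelial-like cells. The sublining ratio was 3.17 (289 CPM in MMS against 32.1 CPM in control), and the lining ratio was 0.30 (46.4 against 37.8 CPM), so the gates differed in the size of the ratio. Of the MMS UMIs of Dkk3, 65.2% lay in sublining-gated cells, 12.8% in cells between the gates, 11.4% in lining-gated and 10.7% in tendon-gated cells, where the level was 384 CPM.

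Wif1, which binds Wnt ligands directly, had 164 UMIs in MMS and 17 in control fibroblast-like cells (3.15 CPM, 2.68 to 3.67, against 0.354 CPM, 0.206 to 0.566), a log2 ratio of 3.15. Its MMS UMIs came from 77 cells, and 25.0% of them from the 82 tendon-gated cells. Frzb, a frizzled-related protein of cartilage and tendon, was lower at 3.05 CPM in MMS and 7.87 CPM in control, a log2 ratio of -1.37 (-1.64 to -1.09). Of its MMS UMIs, 70.4% lay in tendon-gated cells, and without those cells the ratio was -3.05, while in cells of equal depth it was -0.98. In sublining-gated cells it stood at 1.49 CPM (1.02 to 2.10) in MMS against 8.83 CPM (7.94 to 9.79) in control.

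The secreted frizzled-related genes with the most UMIs were within 2-fold over the whole class. Sfrp4 stood at 315 CPM in MMS and 415 CPM in control (log2 ratio -0.40), Sfrp2 at 76.7 and 127 CPM (-0.73) and Sfrp1 at 72.3 and 111 CPM (-0.62). In sublining-gated cells Sfrp4 and Sfrp2 went the other way, at 0.50 and 0.17. Sfrp1 was at 0.06 there (134 against 128 CPM), with an interval, -0.0048 to 0.127, that includes 0. In both libraries these genes were lower in lining-gated than in sublining-gated cells. The part of the lining share in the whole-class values was not tested. Of the Sfrp2 UMIs of fibroblast-like cells, 10 cells held 32.1% in MMS and 32.5% in control. The intervals of counting error do not cover such spread between cells. Sfrp5 was called higher, with 85 UMIs in MMS against 2 in control, but 4 MMS cells held all 85 and 1 cell held 68. Outside the fibroblast-like class Sfrp5 was in Schwann or glial-like cells, with UMIs in 20 of 28 MMS cells and 9 of 9 control cells.

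The downstream genes were mostly within 2-fold in fibroblast-like cells. Axin2, a scaffold of the beta-catenin destruction complex and a widely used read-out of canonical signalling, stood at 6.68 CPM (5.997 to 7.42) in MMS and 7.28 CPM (6.54 to 8.09) in control, a log2 ratio of -0.12 (-0.34 to 0.09). Nkd2, a binder of Dishevelled, stood at 21.1 and 20.8 CPM (0.02), and Notum, the enzyme that removes the lipid of Wnt proteins, at 0.614 and 0.603 CPM (0.03). Nkd1, the relative of Nkd2, was at 6.49 CPM in MMS and 11.6 CPM in control (-0.83). Their intervals overlapped between the libraries except for Nkd1. Lef1 had no UMI in MMS and 1 in control fibroblast-like cells, and most of its UMIs were in T or NK-like cells, 12 of 22 in MMS and 22 of 31 in control.

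Tcf7, a transcription factor of the TCF and LEF family, was the target gene called higher, at 13.1 CPM (12.1 to 14.1) in MMS and 2.18 CPM (1.79 to 2.64) in control, a log2 ratio of 2.58 (2.28 to 2.89). Its UMIs lay in the lining gate, 89.9% of 682 in MMS and 91.4% of 105 in control. Within lining-gated cells the levels were 26.3 CPM in MMS and 15.2 CPM in control, a log2 ratio of 0.79 (0.48 to 1.11) that does not reach 2-fold. With equal weight for lining-gated and sublining-gated cells, and the other fibroblast-like cells left out, the ratio was 0.87. That is smaller than the whole-class ratio, and the part of the lining share was not tested.

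Lining and sublining cells held different parts of the set in both libraries. Wnt5a, Dkk2, Sfrp2 and Sfrp4 were at least 2-fold lower in lining-gated than in sublining-gated cells of either library, with log2 ratios of lining over sublining of -4.04 in MMS and -5.20 in control for Wnt5a, -5.09 and -5.59 for Dkk2, -4.13 and -2.84 for Sfrp2, and -3.74 and -3.35 for Sfrp4. Nkd2 was also lower in lining cells, at -3.72 in MMS and -6.26 in control. Tcf7 had the opposite place, at 3.86 and 6.48, and Wnt4 leaned the same way at 0.69 in MMS and 1.66 in control. The gates were drawn on other genes, and cells of 1 library are not replicates, so these ratios are descriptions.

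Within lining-gated cells, 30 members had 20 UMIs. Of these, 3 were called higher and 5 lower, beside 7.94% and 4.13% of all genes. Wnt4 stood at 3.003 CPM (2.34 to 3.79) in MMS against 12.1 CPM (9.50 to 15.1) in control, a log2 ratio of -2.01. Wnt2 had 0 UMIs in MMS and 20 in control. With 3 UMIs set in place of 0, its MMS level was 0.0406 of the control level. That is a log2 ratio of -4.62, with an upper 95% limit of -4.19. Fzd5 (-1.22), Dkk2 (-1.46) and Sfrp2 (-1.12) were the other lower members. Sfrp1 was higher at 27.5 CPM (25.4 to 29.7) in MMS against 7.93 CPM (5.89 to 10.5) in control, a log2 ratio of 1.79. Nkd2 was higher with 59 UMIs in MMS and 2 in control (2.53 against 0.317 CPM), and Axin2 with 55 and 6 UMIs (2.36 against 0.952 CPM, log2 ratio 1.31, 0.10 to 2.82). In classes made from clusters the Axin2 ratio was 0.63, short of 2-fold. A stricter gate, with a lead of 0.5, turned the ratio of Dkk2 to 0.26 and that of Sfrp2 to 2.34, so neither call of these genes held there.

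In sublining-gated cells, 38 members had 20 UMIs, with 11 called higher and 9 lower beside 10.1% and 7.33% of all genes. The members called higher were Wnt6, Wnt16, Fzd1, Fzd3, Fzd6, Fzd8, Ror2, Dkk3, Sfrp5, Wif1 and Tcf7. Those called lower were Wnt1, Wnt2, Wnt4, Wnt10b, Wnt11, Fzd4, Fzd5, Dkk2 and Frzb. By role, 5 of 15 receptors were higher and 2 lower, while 2 of 10 ligands were higher and 5 lower. The median log2 ratio was 0.24 for receptors and -0.71 for ligands, beside 0.10 for all genes. The MMS and control cells of this gate lay mostly in different clusters, as given above, and a change within a cell type and a change of cell types inside the gate cannot be told apart here.

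**Figure D3:**
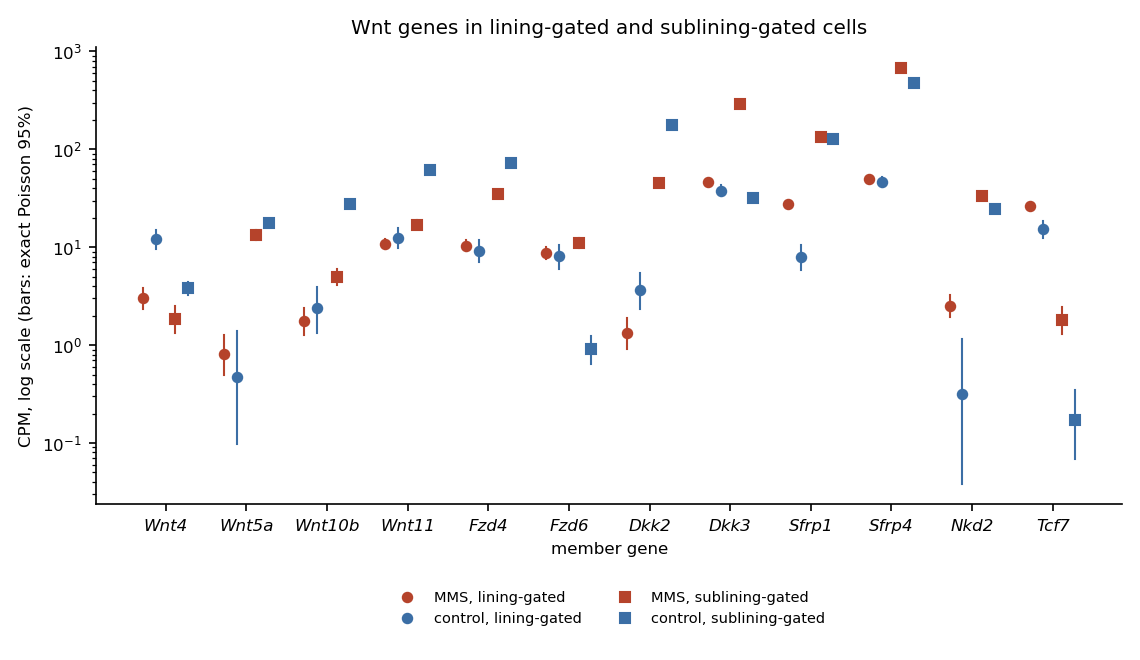
CPM on a log scale with exact Poisson 95% intervals for 12 Wnt members in lining-gated cells (circles) and sublining-gated cells (squares), MMS in red and control in blue. Fzd6 and Dkk3 differ between the libraries in sublining-gated cells (11.1 against 0.903 and 289 against 32.1 CPM) and much less in lining-gated cells, and Tcf7 is higher in lining-gated cells of both libraries.

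Sublining cells that carry Dpp4 or Pi16, markers of an adventitial fibroblast group, held most of the Wnt2 and Wnt10b UMIs of control. A UMI of either gene was found in 263 of 857 MMS and 1298 of 2904 control sublining-gated cells, 30.7% against 44.7%, and this split was chosen after the data were seen, on genes that the sublining gate also uses. In cells with such a UMI, Wnt2 stood at 1.89 CPM in MMS and 18.3 CPM in control (log2 ratio -3.27, -4.16 to -2.50) and Wnt10b at 10.0 and 55.2 CPM (-2.46). In cells without one, Wnt2 was at 0.780 and 0.677 CPM (0.20, -1.06 to 1.42) and Wnt10b at 2.34 and 3.97 CPM (-0.76). The low Wnt2 level of MMS was thus seen in the Dpp4 or Pi16 cells and not in the others, where Wnt2 had 11 UMIs in MMS and 15 in control.

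Wnt11 and Dkk2 differed on both sides of that split. Wnt11 gave log2 ratios of -1.90 with a Dpp4 or Pi16 UMI and -1.76 without, and Dkk2 gave -1.30 and -2.42. Wnt16 was at 9.60 CPM in MMS and 0.212 CPM in control with such a UMI, and at 1.84 and 0.135 CPM without. Sfrp2 and Sfrp1 turned sign across the split. A large part of the Sfrp2 UMIs lay in few cells, as given above, which the intervals do not cover. Sfrp2 stood at 140 CPM in MMS and 45.0 CPM in control with a Dpp4 or Pi16 UMI (log2 ratio 1.64, 1.504 to 1.769) and at 177 and 232 CPM without (-0.39), and Sfrp1 at 172 and 91.1 CPM with one (0.92) and 114 and 160.3 CPM without (-0.49). Deeper cells are more likely to show a UMI of either marker, and MMS cells were deeper, and that part was not tested.

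**Figure D4:**
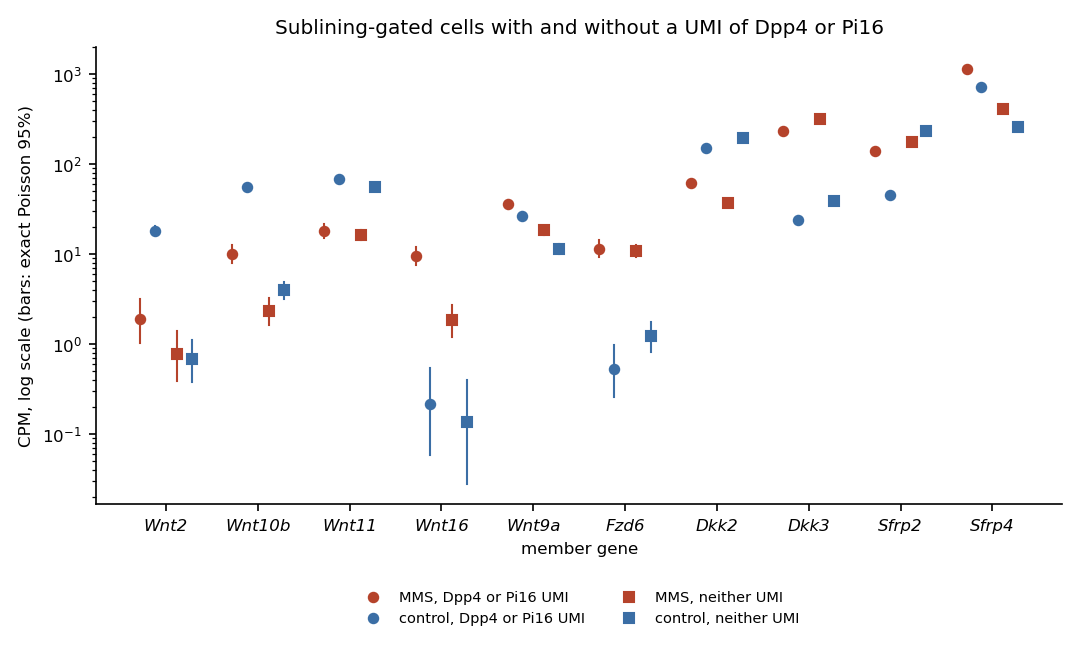
CPM on a log scale with exact Poisson 95% intervals for 10 Wnt members in sublining-gated cells with a UMI of Dpp4 or Pi16 (circles) and with neither (squares), MMS in red and control in blue. Wnt2 and Wnt10b are highest in control cells with such a UMI (18.3 and 55.2 CPM), and Wnt16 in MMS cells with one (9.60 CPM).

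Control cells with a Wnt10b UMI held Wnt2 and Wnt1 UMIs at higher shares than the other control fibroblast-like cells. Of 624 such cells, 116 also had Wnt2 (18.6%) and 34 had Wnt1 (5.45%), against 54 (2.09%) and 16 (0.619%) of the cells without Wnt10b. Wnt11 was in 57.1% of them against 43.9% of the rest, and Wnt5a in 22.0% against 15.4%. Seen from the other gene, 68.2% of the 170 control cells with Wnt2 had Wnt10b, against 16.7% of the rest. In MMS, 6 of 17 cells with Wnt2 had Wnt10b. Of the 36 MMS cells with Wnt16, 44.4% had Sfrp2 and 58.3% Nkd2, against 13.8% and 24.4% of the other MMS fibroblast-like cells. Frzb and Fzd9 went together in MMS, with Fzd9 in 43.7% of 71 Frzb cells against 3.22% of the rest. Cells with more UMIs show more of any gene, and these shares were not corrected for depth.

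The 82 tendon-gated cells of MMS had a profile of their own. Fzd9, a receptor studied in bone, stood at 50.3 CPM (42.1 to 59.6) there against 1.91 CPM in sublining-gated cells of the same library, Frzb at 42.3 CPM (34.9 to 50.9) against 1.49 CPM, and Nkd2 at 74.5 CPM (64.4 to 85.6) against 33.4 CPM. Sfrp4 was the reverse, at 1.89 CPM (0.614 to 4.41) against 669 CPM. These cells held 64.9% of the Fzd9 UMIs and 70.4% of the Frzb UMIs of MMS fibroblast-like cells.

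In endothelial-like cells the 3 targets or feedback genes with 20 UMIs were called higher in MMS, each from few UMIs. Of 18 members with 20 UMIs, 5 were called higher and none lower, beside 8.98% and 3.36% of all genes. Axin2 had 35 UMIs in MMS and 12 in control, or 4.37 CPM (3.04 to 6.07) against 1.37 CPM (0.709 to 2.40), a log2 ratio of 1.67 (0.69 to 2.75). Tcf7 had 22 and 7 UMIs (1.78, 0.50 to 3.25) and Nkd1 27 and 14 (1.07, 0.09 to 2.12). The Nkd1 ratio was past 2-fold in 6 of 10 processing alternatives, which ran from 0.42 to 1.115. Under 20 UMIs, Nkd2 had 6 in MMS and 11 in control (-0.75, -2.47 to 0.81), and Lef1 had 5 and 3 (0.86). The Ror1 call rests on 16 and 8 UMIs, and its interval, -0.18 to 2.56, includes 0. With at least 50 UMIs asked, Dkk2 was the member still called. The endothelial clusters differed between the libraries: cluster 1 held 295 MMS and 94 control cells, cluster 9 held 210 and 1017, and cluster 14 held 181 and 667. Within endothelial-like cells all 10 mural markers summed to 1286 CPM in MMS and 720.1 CPM in control and all 8 cycling markers to 341.5 and 94.4 CPM, with no marker of either list at 0. Axin2 and Nkd1 were highest in mural-like cells in MMS, at 11.0 and 77.0 CPM. The part of these in the calls was not tested.

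Dkk2 in endothelial-like cells ran against its direction in fibroblasts. It gave 85 UMIs in MMS and 20 in control, or 10.6 CPM (8.47 to 13.1) against 2.29 CPM (1.396 to 3.53), a log2 ratio of 2.21 (1.498 to 2.996). The MMS endothelial level was 54.4% of the MMS fibroblast level, while Dkk3, Sfrp1, Sfrp2 and Sfrp4 stood at 0.555% to 1.3% of theirs in the same cells. In control the Dkk2 share was 1.52%, beside 0.515% to 2.07% for those genes. The fibroblast level of Dkk2 was 19.5 CPM in MMS and 151 CPM in control, so the 2 shares have unlike bases. In MMS 4.17% of endothelial-like cells had a Dkk2 UMI, and in control 0.803%, at median depths of 7651 and 3710 UMIs. At 2000 UMIs a cell the shares were 1.14% (0.495% to 2.24%) in MMS and 0.446% (0.179% to 0.916%) in control. These shares rest on 8 MMS and 7 control cells. Their intervals overlap, so the shares at equal depth do not set the libraries apart. The receptors of endothelial-like cells were within 2-fold apart from Ror1. Fzd4 stood at 234 CPM in MMS and 317 CPM in control (-0.44), Lrp5, its partner in Norrin signalling, at 113 and 100.0 CPM (0.17), and Fzd6 at 66.0 and 46.3 CPM (0.51).

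In mural-like cells, 74 in MMS and 60 in control, 11 members had 20 UMIs, with 2 called higher and 4 lower beside 7.76% and 6.9% of all genes. Fzd4 had 196 UMIs in MMS and 158 in control, or 216 CPM (186 to 248) against 459 CPM (390 to 536), a log2 ratio of -1.09. Fzd1 (-1.74, -2.48 to -1.01) and Fzd8 (-1.90, -3.10 to -0.75) were lower as well, opposite to their sublining ratios. Nkd1 was higher at 77.0 CPM (60.0 to 97.3) against 34.8 CPM (18.0 to 60.8), as was Fzd2 with 39 and 4 UMIs. The Dkk3 call rests on 13 and 11 UMIs, and its interval, -2.43 to 0.14, includes 0. Markers of other cells differed too: the 9 lining markers summed to 8058 CPM in MMS (9 detected) and 238 CPM in control (5 detected), the 12 tendon and cartilage markers to 112 (6 detected) and 14.5 CPM (1 detected), and the 6 adipocyte markers to 5616 and 14445 CPM (5 detected in each). Their part in the calls was not tested. With so few cells these calls depended on the filters, as given in the closing section.

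Macrophage or monocyte-like cells had 13 members with 20 UMIs, none called higher and 2 lower, beside 3.85% and 3.88% of all genes. Wnt11 had 27 UMIs in MMS and 339 in control, or 2.92 CPM (1.92 to 4.25) against 19.3 CPM (17.3 to 21.5), a log2 ratio of -2.73 (-3.35 to -2.16). The control level was 35.6% of the control fibroblast level, whereas Dkk2, Sfrp1, Sfrp2 and Sfrp4 stood at 0.265% to 0.462% of theirs in the same macrophage or monocyte-like cells. The 8 dendritic markers, 7 of them detected in each library, summed there to 56.7 CPM in MMS and 183.6 CPM in control, and in the few dendritic-like cells Wnt11 had 6 UMIs in 5 MMS cells and 13 in 7 control cells. The part of these in the Wnt11 value was not tested. Fzd6 had 6 UMIs in MMS and 36 in control (-1.66, -3.20 to -0.40). Lrp6, the receptor with the most UMIs there, stood at 133 CPM in MMS and 142 CPM in control.

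**Figure D5:**
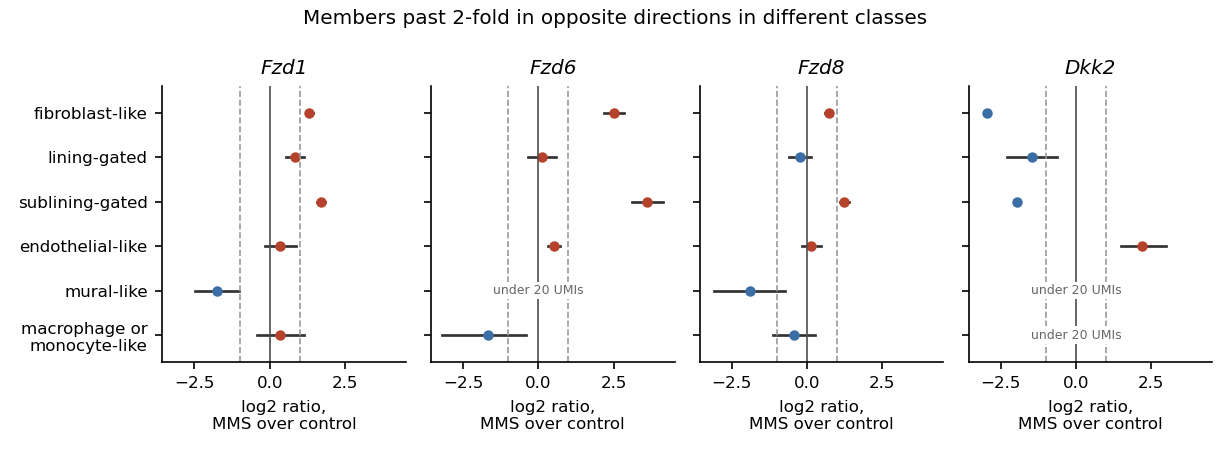
Log2 ratio of CPM, MMS over control, in 6 classes for the 4 members past 2-fold in opposite directions in different classes with intervals clear of 0 on both sides, with exact 95% intervals of counting error and dashed lines at 2-fold. Fzd1 and Fzd8 are higher in sublining-gated cells (1.71 and 1.24) and lower in mural-like cells (-1.74 and -1.90), and Dkk2 is lower in fibroblast-like cells (-2.95) and higher in endothelial-like cells (2.21).

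Around the members, the shared signalling machinery of fibroblast-like cells was mostly within 2-fold. The counts below stand beside 10.9% of all genes called higher and 8.53% called lower in this class. None of 12 genes of the cytoplasmic signal and destruction complex was past 2-fold (median log2 ratio 0.01), with Ctnnb1, the gene of beta-catenin, at 220 CPM in MMS and 159 CPM in control (0.47) and the kinase gene Gsk3b at 141 and 131 CPM (0.11). Of 11 nuclear partners, 2 were lower and none higher: Tcf7l1, a TCF family member often acting as a repressor, at 23.8 and 49.3 CPM (-1.05), and the co-repressor Tle4 at 6.53 and 20.7 CPM (-1.66). Of 13 polarity and beta-catenin independent genes, 1 was higher, the pseudokinase receptor Ptk7 at 6.03 CPM in MMS and 1.04 CPM in control (2.53), and Daam2, a formin that binds Dishevelled, stood at 19.1 and 37 CPM (-0.95). Neither secretion gene passed over the class, and 1 of the 2 was higher in the sublining gate, with Wls, the Wnt carrier, at 175 and 106 CPM (0.73) over the class and Porcn, which adds the lipid, at 10.1 and 8.11 CPM (0.32). Of 5 other inhibitors and binders, Cthrc1 was higher (557 against 55.9 CPM) and Gpc3 lower (8.04 against 25.2 CPM).

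Genes often used as read-outs of beta-catenin split, with 3 of 11 higher and 3 lower, beside 10.9% and 8.53% of all genes. Within sublining-gated cells 3 of 11 were higher and 3 lower, beside 10.1% and 7.33%. Within lining-gated cells 2 of 10 were higher and 2 lower, beside 7.94% and 4.13%. Over the whole class Dact2 was lowest, at 0.825 CPM in MMS and 9.36 CPM in control (-3.50). Lgr5, one of the higher genes, is also counted with the R-spondin genes below. Ccn4 stood at 39.8 CPM in MMS and 2.66 CPM in control (3.90), Ccn5 at 584 and 177 CPM (1.72), Myc at 24.1 and 90.9 CPM (-1.92) and Ccnd1, a cell cycle gene, at 26.7 and 57.4 CPM (-1.10). Of 8 genes of R-spondins, their receptors and ligases, 4 were higher and 1 lower over the whole class (median log2 ratio 0.87), beside the 10.9% and 8.53% of all genes. Within the gates, 1 of 6 was higher and none lower in sublining-gated cells (median 0.19), and none was higher and 1 lower of 6 in lining-gated cells (median 0.04). Rspo2, an amplifier of Wnt signalling, stood at 106 and 46.2 CPM (1.20) over the class, at 27.0 and 14.3 CPM (0.92) in the sublining gate and at 199 and 248 CPM (-0.32) in the lining gate, and its receptor Lgr5 had 213 UMIs in MMS and 6 in control, of which 115 and 6 were in sublining-gated cells.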

How the data were processed

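The authors deposited 1 matrix of raw counts (UMIs per gene and barcode) for each library. Cell Ranger is 5.0.0 per the file headers but 2.0.0, with build mm10, per the submitters' processing notes, so its version is not settled. The deposited counts were used as they are. Total counts were 85597195 UMIs in MMS and 84900876 in control, with at least 500 UMIs a barcode.

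Cells with 1000 UMIs, 500 genes and at most 10% mitochondrial UMIs were kept, and doublets called by scrublet in scanpy 1.11.5 at an expected rate of 0.06 were removed (106 MMS and 184 control barcodes). A cell took the class with the highest mean log score of its markers when at least 3 markers had a UMI and the lead was 0.2. Of the kept cells, 77 of 3765 in MMS and 216 of 6891 in control lay within 0.1 of that lead, as did 203 of 1839 and 51 of 3208 fibroblast-like cells for the lining and sublining gates. UMIs were summed over the cells of a class. CPM has exact Poisson intervals, and the log2 ratio of MMS over control has exact binomial ones (scipy 1.17.1). UMIs are counted molecules, but the intervals hold no spread between animals. With 1 library a group, no test was run. A level of 0 UMIs took a floor of 3. For shares of cells, each cell was thinned to 2000 UMIs, which left out 107 MMS and 33 control fibroblast-like cells. The ratio and the call rule were tested on simulated UMI sums with known folds for fibroblast-like and mural-like cells. Filters, doublet calls and gates were not tested this way. Gene IDs matched GENCODE M21 for 32158 of 32285 rows. Alternatives covered filters, gates, weights, depth, doublets and Leiden clusters.

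Members with 20 UMIs in fibroblast-like cells, or in their source class, were named with values, those under 10 UMIs only named, and other pathway genes were counted by list with 2 to 4 examples. The members and gene lists were chosen with earlier results of these data known.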

Additional observations from a re-analysis of the deposited data

Results flagged for a closer look

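In 4 members the log2 ratio of MMS over control was past 2-fold in opposite directions in different classes, with intervals clear of 0 on both sides. The difference between classes was not tested, since each library gives 1 value a class. Fzd1 was at 1.31 in fibroblast-like and 1.71 in sublining-gated cells, and at -1.74 in mural-like cells. Fzd6 was at 2.51 in fibroblast-like and 3.62 in sublining-gated cells, and at -1.66 in macrophage or monocyte-like cells, where it rests on 6 UMIs in MMS and 36 in control. Fzd8 was at 1.24 in sublining-gated and -1.90 in mural-like cells, the second from 12 and 17 UMIs. Dkk2 was at 2.21 in endothelial-like cells, and at -2.95 in fibroblast-like, -1.46 in lining-gated and -1.96 in sublining-gated cells. Dkk3 was also past 2-fold both ways, at 2.47 in fibroblast-like, 3.17 in sublining-gated and -1.16 in mural-like cells, but the interval of its mural value, -2.43 to 0.14, includes 0.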

How the results depend on the processing

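The fibroblast-like counts ran from 6 to 10 higher and from 7 to 10 lower over the alternatives, and of 270 values for its 18 called members none turned sign and 255 stayed past 2-fold. Past 2-fold in either direction were 258 of 273 sublining, 84 of 92 lining, 49 of 54 endothelial, 56 of 65 mural and 22 of 22 macrophage values. The lining values past 2-fold include Sfrp2 at 2.34, which had turned sign. Values that turned sign were Dkk2 (0.26) and Sfrp2 (2.34) in lining cells under a stricter gate, Wnt2 (0.20) in sublining cells without a Dpp4 or Pi16 UMI, an alternative chosen after seeing the data, and Dkk3 (0.57) in mural cells by clusters. By clusters, lining counts were 1 higher and 3 lower, endothelial 3 higher and mural 1 lower. The stricter gate gave 3 lower in lining. In sublining cells, 6 were higher with a Dpp4 or Pi16 UMI and 5 lower without one. With at least 50 UMIs, 1 was higher in endothelial, 1 higher and 2 lower in mural and 1 lower in macrophage cells. With 1 UMI in each library as the only minimum, 11 were higher and 2 lower in endothelial, 4 higher in mural, and 2 higher and 5 lower in macrophage cells. With each cell weighted equally, 1 was lower in endothelial and 1 higher in mural cells. At a mitochondrial limit of 5%, 0 were higher and 1 lower in mural, and 2 higher and 1 lower in macrophage cells. With doublets kept, 1 was higher in macrophage cells. The causes were not tested. No paired analysis was possible because each group has 1 library. Members near 20 UMIs are limited by depth.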
